A study of Mus musculus with 2 samples.

Results

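The granins and the dense-core granule protein Resp18 were followed as 6 genes, Chga, Chgb, Scg2, Scg3, Vgf and Resp18, chosen by symbol from the 27998 genes of the matrices. They were measured by single-cell RNA-Seq in islet cells of WT mice and of GKO mice, which lack the ghrelin gene in every cell. Both were C57BL/6N littermates from crosses of heterozygotes, 8 weeks old and fed chow ad libitum. For each genotype the digested pancreata of 4 mice were pooled, islets were handpicked and dispersed, viable cells were sorted, and 1 library was made. With 1 library per genotype no difference between genotypes can be tested, and every interval given here covers counting error only.

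Dense-core granules are the vesicles in which endocrine cells and neurons store peptide hormones until a rise in calcium triggers their release. Granins are acidic proteins that aggregate with calcium in the trans-Golgi network, help to form the granule core, and are cut into peptides by the same convertases that process prohormones. Because islet, adrenal chromaffin and gut endocrine cells share them, they are widely used as markers of endocrine cells.

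Chga encodes chromogranin A, the granule matrix protein from which pancreastatin and vasostatin are cut, and lies at chr12:102554969-102565028 on the plus strand with 8 exons (ENSMUSG00000021194). Chgb encodes chromogranin B and lies at chr2:132781278-132795079 on the plus strand with 5 exons (ENSMUSG00000027350). Scg2 encodes secretogranin II, the precursor of secretoneurin, and lies at chr1:79434669-79440120 on the minus strand with 2 exons (ENSMUSG00000050711). Scg3 encodes secretogranin III, which links chromogranin A to the cholesterol-rich granule membrane, and lies at chr9:75643189-75684056 on the minus strand with 12 exons (ENSMUSG00000032181). Vgf encodes a precursor of neuropeptides and lies at chr5:137026392-137033351 on the plus strand with 2 exons (ENSMUSG00000037428). Resp18 encodes a protein of the secretory pathway related to the luminal part of Ptprn, and lies at chr1:75272199-75278415 on the minus strand with 6 exons (ENSMUSG00000033061). Positions and exons of the principal transcript are those of GENCODE vM21 on mm10. Scg3 and Resp18 each overlap 1 gene on the opposite strand in that annotation, and the strand setting of the counting is not given in the sources used here.

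The first 250 bases before the start of each gene were searched on both strands for TGACGTCA, the cyclic AMP response element, for its shorter core TGACG, which is part of it, and for TATAAA. The RefSeq promoter table (GRCm38.p6) held 5 of the 6 members, all but Vgf. Windows of 30 bases around the element are shown for the 4 members that held the core, because the same letters stand within 72 bases of the start in each, with the match in capitals.
Chgb, chr2:132781559-132781588, plus strand: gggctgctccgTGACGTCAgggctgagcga
Scg2, chr1:79440076-79440105, minus strand: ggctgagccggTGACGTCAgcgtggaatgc
Chga, chr12:102554886-102554915, plus strand: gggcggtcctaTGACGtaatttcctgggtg
Scg3, chr9:75684068-75684097, minus strand: cgctgggtcgcTGACGccatcctcacgcct
The full element was held by Chgb and Scg2, starting 72 and 68 bases before the start, and by 1.55% of all 32851 promoters in the table. The core started 44 bases before the start of Chga and 30 bases before that of Scg3, and 17.8% of all promoters held it. No match to TATAAA was found in the 5 members, and 12.4% of all promoters held one. Resp18 held none of the 3 motifs. GENCODE vM21 places the windows of Chgb and Scg2 in an untranslated part of an exon, since its transcripts start farther upstream, and those of Chga and Scg3 upstream of the gene. A match is a description of the sequence and shows no binding.

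The WT matrix held 158067110 UMIs (unique molecular identifiers, each 1 captured transcript) in 7792 barcodes, and the GKO matrix 103511757 UMIs in 7289 barcodes, of which 18 had the same sequence in both. Ghrl itself was at 276 CPM (counts per 1000000 UMIs) in the WT library and 2.71 CPM in the GKO library, with 43634 and 280 UMIs, and 276 of those 280 were in 1 GKO barcode, which enters none of the classes compared here. Requiring 500 detected genes and no more than 10% of UMIs from mitochondrial genes left 7100 WT and 6346 GKO barcodes. A barcode was put in a class when 1 hormone had at least 10% of its UMIs and led the others. Gcg gave 1048 WT and 1397 GKO α-like barcodes, Ins1 with Ins2 gave 2265 and 872 β-like barcodes, Sst gave 1414 and 1003 δ-like barcodes, and Ppy gave 717 and 669 γ-like barcodes. In both libraries the α markers Gcg, Irx2, Ttr and Slc7a2 were highest in the α-like class, as were 8 of 8 β markers and 5 of 5 δ markers in theirs, but only 2 of 4 γ markers (Fxyd6 and Etv1 were not). These counts include Gcg, Ins1, Ins2, Sst and Ppy, which set the classes and so were highest there by construction. Apart from Ppy, only Pyy among the γ markers was highest in the γ-like class. A second hormone with at least 10% of UMIs was held by 16 to 62 barcodes of each class and library. Barcodes with no such hormone and at least 3 detected markers of a nonendocrine cell type numbered 1428 in WT and 2121 in GKO. Levels are CPM of the summed barcodes of a class and library. Hormone genes took 59.2% to 61.3% of UMIs in the β-like class and 22.0% to 36.9% in the others, so levels are also given per 1000000 UMIs without Ins1, Ins2, Gcg, Sst and Ppy, called hormone-free CPM. That total still holds Pyy and Iapp. Pyy was at 118457 CPM in WT and 117846 CPM in GKO γ-like barcodes, and Iapp at 40020 and 40991 CPM in β-like barcodes. The orders of classes below were not drawn up with Pyy and Iapp left out as well. Classes are said to overlap where their ranges over both libraries do.

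The 6 members did not share 1 order among the islet classes. Chga was highest in β-like barcodes and lowest in γ-like barcodes, Chgb and Scg2 stood high in δ-like barcodes, Resp18 was lowest in β-like barcodes, and Vgf was highest in α-like barcodes. In hormone-free CPM, averaged over both libraries, only Vgf differed at least 4-fold between the highest and the lowest class, beside 7.68% of the 8774 genes with a mean of at least 10 hormone-free CPM. Its fold was 40.8 in WT and 20.4 in GKO, and rests on 16 UMIs in each library in its lowest class, the δ-like one. Chga lay just under the limit on that average, at 3.99-fold, with 3.79-fold in WT and 4.20-fold in GKO. The median over the 6 members was 3.67-fold and the median over all those genes 1.59-fold.

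Chga was at 5594 CPM in WT and 6218 CPM in GKO β-like barcodes. It was at 5016 and 5250 CPM in α-like, 3746 and 3890 CPM in δ-like, and 2407 and 2326 CPM in γ-like barcodes. The order of the classes was the same in both libraries and no neighbors overlapped. The β-like class stood 1.12-fold and 1.18-fold above the α-like class in CPM, and 2.07-fold and 2.08-fold above it in hormone-free CPM (14440.5 and 15233 against 6984 and 7332).

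Chgb was at 3507 CPM in WT and 3688 CPM in GKO δ-like barcodes. The γ-like class followed with 1198 and 1166 CPM, then the α-like class with 856 and 896 CPM and the β-like class with 805 and 918 CPM. The δ-like class was thus highest by 2.93-fold and 3.16-fold, and the α-like and β-like classes overlapped. In hormone-free CPM the β-like class came second, with 2079 and 2249 against 4517 and 4729 in δ-like barcodes.

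Scg2 was likewise highest in δ-like barcodes by CPM, at 3638 in WT and 3512 in GKO. It was at 1827 and 1953 CPM in γ-like, 1652 and 1848 CPM in β-like, and 963 and 892 CPM in α-like barcodes. Here the choice of total decided the order, because in hormone-free CPM the β-like class (4264 and 4528) overlapped the δ-like class (4686 and 4503). The α-like class was lowest on both scales.

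Scg3 differed least among the granins. It was at 726 CPM in WT and 715 CPM in GKO α-like barcodes, 663 and 770 CPM in β-like, 733 and 755 CPM in δ-like, and 505 and 540 CPM in γ-like barcodes. The γ-like class was lowest in both libraries and on both scales, and in CPM the β-like range overlapped those of the α-like and δ-like classes. In hormone-free CPM the β-like class stood apart, at 1710 and 1887 against 1011 and 999 in α-like barcodes.

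Resp18 was at 4054 CPM in WT and 4555 CPM in GKO α-like barcodes, and at 3943 and 4789 CPM in δ-like barcodes, so that these classes overlapped. The γ-like class had 2907 and 2782 CPM, and the β-like class 1160 and 1318 CPM. The β-like class was lowest on both scales, with 2994 and 3228 hormone-free CPM.

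Vgf was the rarest member. In α-like barcodes its level was 36.1 CPM for WT (95% interval 33.1 to 39.4) and 27.3 CPM for GKO (25.02 to 29.8). The β-like class had 4.99 and 6.04 CPM and the γ-like class 5.27 and 5.33 CPM, which overlapped. In δ-like barcodes 16 UMIs in each library gave 0.957 CPM in WT (0.547 to 1.56) and 1.46 CPM in GKO (0.833 to 2.37). These intervals overlapped those of nonendocrine barcodes, 1.82 (1.199 to 2.65) and 1.39 CPM (0.907 to 2.03). Of the 27 Vgf UMIs in WT nonendocrine barcodes, 13 were in 1 ductal-like barcode with the hormone gene Sct. Of the 26 in GKO, 11 were in 1 endothelial-like barcode. After thinning each barcode to 5000 UMIs, 11.96% of WT (10.04 to 14.1, Clopper-Pearson) and 9.55% of GKO (8.05 to 11.2) α-like barcodes held a Vgf UMI, against 0.452% (0.147 to 1.051) and 0.366% (0.135 to 0.796) of nonendocrine barcodes. Unthinned, the shares were 27.2% and 22.9% against 0.910% and 0.519%.

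Within a class the members differed in how evenly barcodes held them. In hormone-free CPM per barcode, the 10th and 90th percentiles of Scg2 in WT δ-like barcodes were 2965 and 6427, and those of Chgb were 2521 and 6465. Resp18 was less even in the same barcodes, from 925 to 9416 around a median of 4705. In WT β-like barcodes Chga ran from 7267 to 26321 around a median of 13736, and Resp18 from 714 to 5716 around 2545. GKO barcodes had like ranges, with Resp18 in δ-like barcodes from 1613 to 10766 around 5947.

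**Figure D1:**
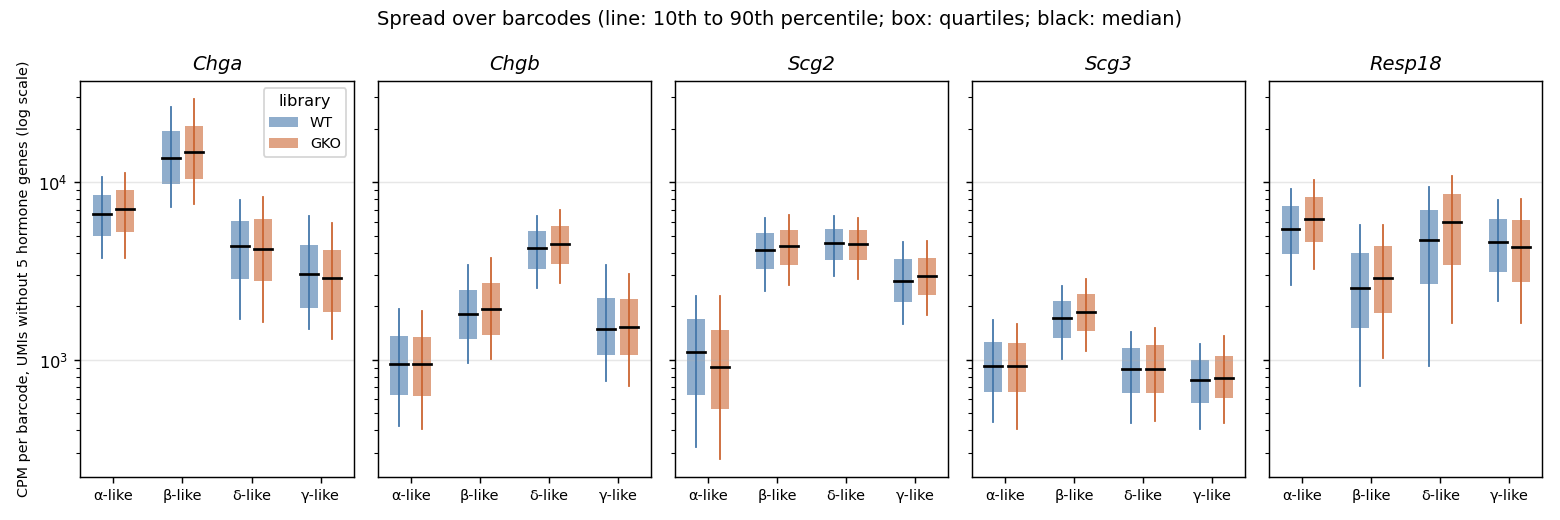
Spread of 5 members over barcodes (hormone-free CPM per barcode, log axis shared by the panels) in each hormone-led class and library. Lines run from the 10th to the 90th percentile, boxes over the quartiles and black bars mark medians. Scg2 in WT δ-like barcodes spans 2965 to 6427, and Resp18 in the same barcodes 925 to 9416. Vgf is left out because its median is 0 in every class.

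Nonendocrine barcodes were taken as a guide to the background of free RNA and of mixed droplets for these genes. What share of their UMIs came from either was not tested. Chga stood at 228 CPM over all WT and 262 CPM over all GKO nonendocrine barcodes, 21.5-fold and 18.6-fold below its level over the 4 hormone-led classes together (4909 and 4883 CPM). Scg2 had 103 and 87.1 CPM, Scg3 32.8 and 31.5 CPM, Resp18 164 and 134 CPM, and Chgb 163 and 77.0 CPM. For Chgb in WT, 2 ductal-like barcodes with the hormone gene Sct held 618 and 359 of the 2423 UMIs. For every member the median barcode held no UMI, and the 1% of barcodes with most UMIs held 35.4% to 72.6% of the UMIs of the 5 members other than Vgf. After thinning to 5000 UMIs, 31.8% (29.1 to 34.6) of WT and 25.1% (23.0 to 27.3) of GKO nonendocrine barcodes held a Chga UMI, against 99.8% and 99.9% of hormone-led barcodes. The unthinned shares were 48.3% and 36.8%, at median depths of 8080 and 7865 UMIs, and 99.96% and 100% in hormone-led barcodes at 20021 and 14548 UMIs. Where all 4 hormones together had under 5% of UMIs, Chga had 90.04 CPM in WT and 174 CPM in GKO.

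Glial-like barcodes, named from markers that include Gpr37l1, Sox10 and Fabp7, stood apart for Scg3 in both libraries, a contrast picked after the values were seen. In WT, 8 of 15 barcodes held 12 Scg3 UMIs, or 148 CPM (95% interval 76.5 to 259), against 32.1 CPM in the other nonendocrine barcodes. In GKO, 9 of 12 barcodes held 34 Scg3 UMIs, or 412 CPM (285 to 575), against 29.8 CPM. The median barcode had 135 and 292 CPM, whereas in each other nonendocrine class the median barcode held no Scg3 UMI. The other members in the WT barcodes were 5 Chga, 2 Chgb and no Scg2, Vgf or Resp18 UMIs, at a median depth of 5880 UMIs. In GKO other members were high too, with Chga at 1513, Resp18 at 641.5, Chgb at 303 and Scg2 at 290.5 CPM. The other GKO nonendocrine barcodes had 257, 132, 76.0 and 86.2 CPM of these. The 2 GKO glial-like barcodes with most Chga UMIs held 121 of the 125, which left 4. Likewise 2 barcodes held all 53 Resp18 UMIs, 24 of 25 for Chgb and 23 of 24 for Scg2. The 2 barcodes with most Scg3 UMIs held 20 of the 34, which left 14. Each pair was picked for its own gene, and whether the pairs were the same barcodes was not determined. The glial-like barcodes are few, and the part of mixed droplets was not tested.

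The barcodes of each class were then ordered by the share of their leading hormone and cut into 4 groups of equal size, to see which members moved with hormone load. Member levels in these groups are hormone-free CPM unless all UMIs are named, because a rising hormone share alone lowers CPM of all UMIs. In γ-like barcodes Chga went down as Ppy went up, from 5653 hormone-free CPM in the lowest group (10.4% to 25.8% Ppy) to 2851 in the highest (41.9% to 55.6%) in WT, and from 5428 to 2652 in GKO. Vgf went the same way, with 47, 19, 18 and 7 UMIs over the 4 WT groups and 46, 24, 12 and 1 UMIs over the 4 GKO groups. Resp18 and Scg2 did not on this scale. Resp18 had 4421 and 5134 hormone-free CPM in the outer WT groups and 4480 and 4670 in GKO. By all UMIs both went down. The log2 ratio of the highest to the lowest group was then −0.27 in WT and −0.38 in GKO for Resp18, and −0.32 and −0.40 for Scg2. The lowest Ppy group also held more of other hormones, with 42512 and 37175 CPM of Gcg against 663 and 1203 in the highest, and the summed immediate early and dissociation genes (Fos, Fosb, Jun, Junb, Egr1, Atf3, Npas4, Nr4a1, Hspa1a and Hspa1b) went up with Ppy, from 15394 to 24419 hormone-free CPM in WT and from 17397 to 24707 in GKO. The part of the latter genes in the Chga gradient was not tested. Among barcodes with every second hormone under 5% of UMIs, Chga still ran from 4836 to 2754 in WT and from 4488 to 2589 in GKO.

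In α-like barcodes the direction for Chga and Vgf was the opposite. From the lowest to the highest Gcg group Chga went from 6092 to 7891 hormone-free CPM in WT and from 6354 to 8233 in GKO, and Resp18 from 5199 to 6369 and from 5734 to 7383. By all UMIs these rises were small, with log2 ratios of 0.095 in WT and 0.072 in GKO for Chga. Those for Resp18 were 0.014 and 0.063. Vgf went from 25.8 to 84.3 in WT (78 and 211 UMIs) and from 21.9 to 45.4 in GKO (86 and 144 UMIs). Chgb went down, from 1593 to 1023 and from 1636 to 1006. Without barcodes whose second hormone reached 5%, the Chgb gradient shrank to 1139 against 1029 in WT and 1041 against 993 in GKO, and Scg2 then went up with Gcg where over all barcodes it had gone from 1627 to 1369 in WT and from 1592 to 1174 in GKO. The values without those barcodes ran from 1052 to 1379 and from 944 to 1174 for Scg2. The immediate early and dissociation genes went down with Gcg, from 9465 to 5108 and from 10082 to 6660, and their part was not tested. The lowest Gcg group held 28537 CPM of Sst in WT and 28031 CPM in GKO, against 305 and 220 CPM in the highest. Sst is the hormone of the class in which Chgb and Scg2 are high by CPM, and its part in their gradients was not tested.

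Over all β-like barcodes Chga changed little with insulin (14296 and 14907 hormone-free CPM in the outer WT groups, 15670 and 15338 in GKO). With every second hormone under 5% Chga ran from 15441.9 to 14958.5 in WT and from 17950.4 to 15428.2 in GKO. Chgb went down with insulin, from 2629 to 1801 in WT and from 2942 to 1852 in GKO, and still did so, from 2464 to 1801 and from 2831 to 1856, with every second hormone under 5%. Resp18 also went down, from 3954 to 2691 and from 4043 to 3109, but with every second hormone under 5% it ran from 3248 to 2734 in WT and from 3196 to 3193 in GKO. Scg3 went up, from 1411 to 1898 and from 1610 to 2027, and from 1556 to 1900 and from 1850 to 2010 with every second hormone under 5%. By all UMIs Scg3 and Chga both went down over all β-like barcodes. The log2 ratio of the highest to the lowest group was then −0.45 in WT and −0.55 in GKO for Scg3, and −0.81 and −0.91 for Chga. The immediate early and dissociation genes went down with insulin, from 5134 to 985 in WT and from 4643 to 668 in GKO, and their part was not tested. In δ-like barcodes Resp18 went up with Sst, from 4502 to 5686 in WT and from 5643 to 6889 in GKO, while Chgb had 4385 and 4625 in the outer WT groups and 4445 and 4990 in GKO. There too the immediate early and dissociation genes went down, from 8068 to 4349 and from 7538 to 4200.

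**Figure D2:**
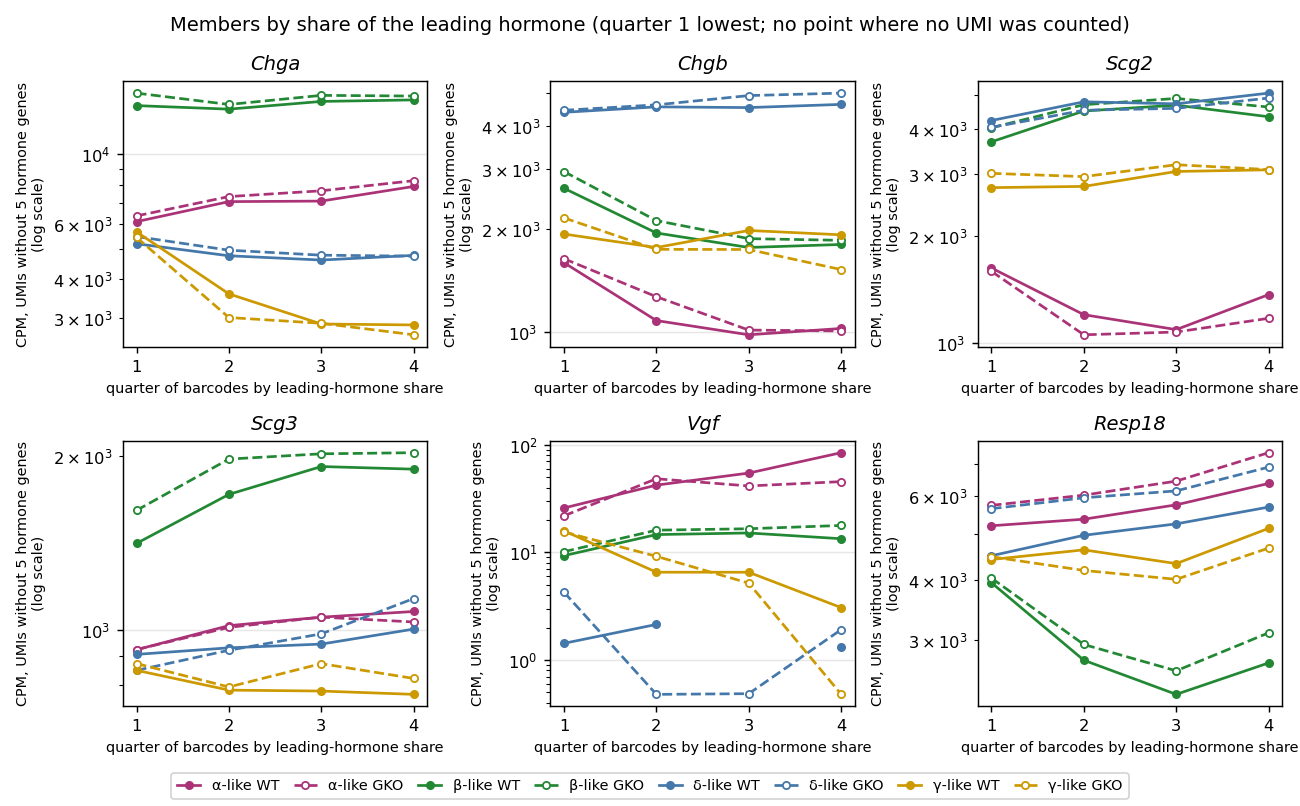
Hormone-free CPM of each member (log axis with its own range in each panel) in 4 equal groups of the barcodes of a class, from the lowest (1) to the highest (4) share of the leading hormone. Solid lines with filled points are WT and dashed lines with open points are GKO. The γ-like Chga lines end at 2851 (WT) and 2652 (GKO), below their starts at 5653 and 5428, and the α-like Chga lines rise.

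Across the barcodes of 1 class and library with at least 5000 UMIs, the 5 members other than Vgf were only loosely related. Pearson's r of log2(hormone-free CPM + 100) over the 10 pairs had medians from 0.124 to 0.242 in the 8 classes and libraries, and the highest were those of Chgb with Scg2 in GKO α-like (0.414, 1382 barcodes) and γ-like barcodes (0.408, 667 barcodes). With every second hormone under 5% these were 0.308 and 0.391, and in β-like barcodes the same pair had 0.0426 in WT and −0.0186 in GKO. Vgf, known to respond to activity in neurons, had r between −0.164 and 0.0555 with the summed level of the 10 immediate early and dissociation genes. It reached at most 50.3 hormone-free CPM in a class, with a median of 0 over barcodes. That lies below the 100 added before the log, so a small r for Vgf cannot be read as a lack of relation. For the other 5 members r with the same sum went down to −0.308 in WT and −0.361 in GKO for Chga in γ-like barcodes. It was −0.337 for Chgb in GKO γ-like barcodes, and −0.256 and −0.289 for Scg2 in β-like barcodes. The highest was 0.263 for Chgb in WT β-like barcodes, with 0.182 in GKO. These barcodes share a library, droplet noise and depth, so r is given as a description.

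Over 11 classes in 2 libraries (22 points, log2 of hormone-free CPM + 1), the genes whose levels followed each member most closely were named by their r alone. Chga was followed by Syt13 (r = 0.986), Gipr (0.984) and Insm1 (0.977), of which Insm1 encodes an endocrine transcription factor and Gipr the receptor of an incretin. Scg2 was followed by Insm1 (0.983), Bex2 (0.983) and Efcab1 (0.982), and Scg3 by Slc2a5 (0.991), Syt13 (0.990) and Gipr (0.988). Chgb was followed by Hgfac (0.982), Sult1d1 (0.982) and Dio1 (0.972). Resp18 was followed by Tmem27 (0.995) and by Scg5 (0.992), which encodes the convertase chaperone 7B2. Vgf was followed less closely, by Tmsb15l (0.850), the α cell gene Ttr (0.847) and Glrb (0.842). Among members, Chga and Scg3 were closest (0.991), and Vgf had 0.616 to 0.691 with the others. Both libraries enter as points of their own, and the share of each r that comes from the gap between hormone-led and nonendocrine classes was not measured.

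Between genotypes the members other than Vgf differed little. Of the 5 members with a mean of at least 50 CPM (Vgf passed in no class), 1 in 1 class was at least 1.2-fold apart, Resp18 in δ-like barcodes. It had 65893 UMIs in WT and 52596 UMIs in GKO, or 3943 and 4789 CPM, a log2 ratio of GKO to WT of 0.28 (95% interval 0.26 to 0.30). Of the 2590 genes measured in that class 2.12% had a higher ratio, and 2.82% were at least 1.2-fold higher and 5.71% at least 1.2-fold lower in GKO (1.43% and 7.50% with TMM factors). With TMM factors the log2 ratio was 0.24, just under the limit of 0.26. Median Resp18 over δ-like barcodes was 4705 hormone-free CPM in WT and 5947 in GKO. In α-like barcodes Resp18 had 4054 and 4555 CPM (0.17, 0.15 to 0.18), and in γ-like barcodes 2907 and 2782 CPM (−0.06, −0.08 to −0.05).

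In β-like barcodes all 5 members that passed lay above 0, as did 77.9% of all genes. Their log2 ratios were 0.15 for Chga, 0.16 for Scg2, 0.18 for Resp18, 0.19 for Chgb and 0.22 for Scg3 (0.20 to 0.24), with a median of 0.18 beside 0.11 for all 1195 genes. In hormone-free CPM the members had a median of 0.11 and all genes 0.03, and the members ran from 0.08 for Chga to 0.14 for Scg3. None was past 1.2-fold, beside 9.96% of genes higher and 5.36% lower. That split turned with the scaling, to 2.98% higher and 5.06% lower in hormone-free CPM and 1.93% and 7.71% with TMM factors. Resp18 rested on the barcodes used, since without those that held 3 or more markers of a nonendocrine cell type, acinar markers included (1518 WT and 686 GKO barcodes left), its log2 ratio was 0.37. Markers of a type other than acinar reached 3 in 127 WT and 58 GKO β-like barcodes. The authors caution that their β cell data come from cells that survived sorting, and propose that GKO β cells may be more fragile. The part of such selection in these ratios was not tested.

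In α-like barcodes none of the 5 was past 1.2-fold, beside 4.00% of 2175 genes higher and 5.38% lower (5.56% and 4.69% in hormone-free CPM, 2.35% and 6.90% with TMM factors). Scg2 was at 963 CPM for WT and 892 CPM for GKO (−0.11, −0.14 to −0.08), Chga and Chgb had 0.07 each, and Scg3 −0.02 (−0.06 to 0.02). Vgf, below the 50 CPM limit, had 524 and 512 UMIs, or 36.1 and 27.3 CPM, a log2 ratio of −0.40 (−0.58 to −0.22), and 97.2% of the genes measured lay above that ratio. In γ-like barcodes none was past the limit either, beside 4.41% of 1632 genes higher and 5.02% lower (1.78% and 6.98% with TMM factors). Chga (−0.05), Chgb (−0.04) and Resp18 (−0.06) were below 0 there and Scg2 and Scg3 (0.10 each) above, around a median of −0.04 beside 0.06 for all genes. In δ-like barcodes Chga had 0.05, Chgb 0.07, Scg3 0.04 and Scg2 −0.05. The signs thus differed between classes, with intervals clear of 0 under both totals, for 4 of the 5 members, beside 9.25% of the 1049 genes with at least 50 CPM in each class and 26.6% of the 79 genes at or above the level of the lowest member. The summed immediate early and dissociation genes had log2 ratios of 0.21 in α-like, −0.04 in β-like, −0.23 in δ-like and 0.13 in γ-like barcodes, and their part in these values was not tested.

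**Figure D3:**
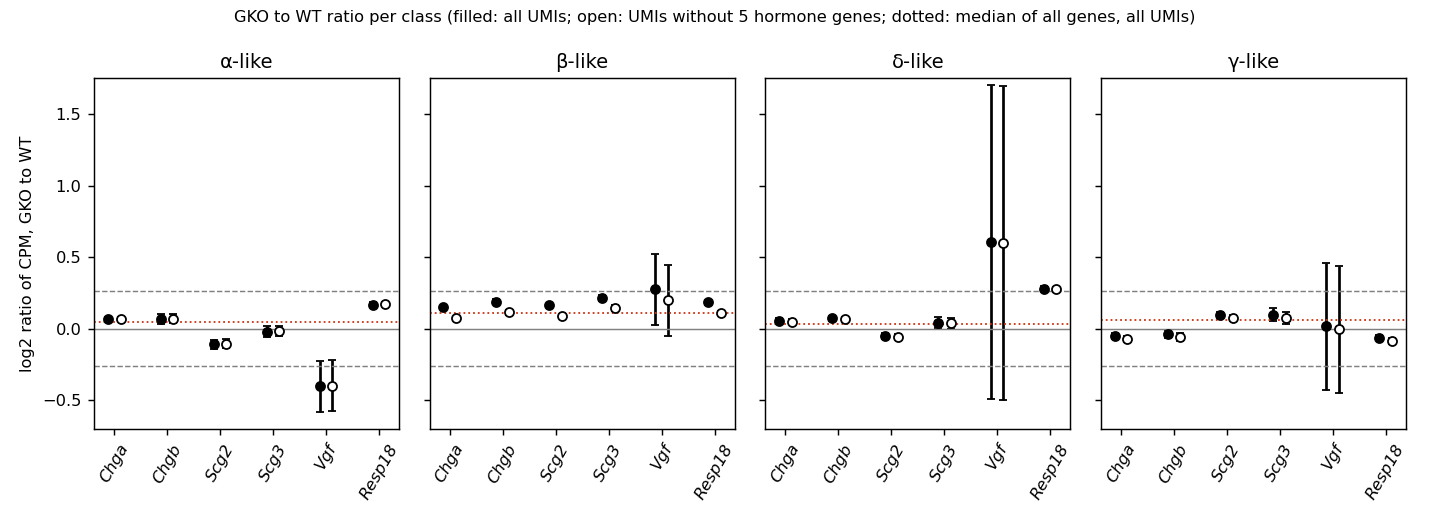
Log2 ratio of GKO to WT of each member in the 4 hormone-led classes, with exact 95% intervals for counting error. Filled points use all UMIs and open points UMIs without the 5 hormone genes. Dashed lines mark 1.2-fold and the dotted line the median of all genes by all UMIs. Resp18 in δ-like barcodes (0.28) is past the line. Vgf, below the limit of 50 CPM, is past it in α-like (−0.40), β-like (0.28) and δ-like barcodes (0.61). The Vgf intervals are wide outside the α-like class (−0.49 to 1.70 in δ-like barcodes).

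Other genes of the granule were taken from a list of 36 that serve processing, the granule membrane, Rab-dependent docking and biogenesis. Of those with a mean of at least 50 CPM, 0 of 18 were at least 1.2-fold higher and 1 lower in GKO α-like barcodes, 1 of 16 was higher in β-like, 1 of 20 higher in δ-like, and of 15 in γ-like barcodes 1 was higher and 1 lower. Over all genes with such a mean, 4.00% were higher and 5.38% lower in α-like, and 9.96% and 5.36% in β-like barcodes. The shares were 2.82% and 5.71% in δ-like, and 4.41% and 5.02% in γ-like barcodes. On the list, the lower gene in α-like barcodes was Rab27a, a GTPase of granule docking (59.0 to 49.0 CPM, −0.27). The higher genes were Syt4 in β-like (80.6 to 102 CPM, 0.33) and Syt5 in δ-like barcodes (82.8 to 107 CPM, 0.37), both synaptotagmins, and Rab37 in γ-like barcodes (52.2 to 63.4 CPM, 0.28). The lower gene in γ-like barcodes was Slc30a8, the granule zinc transporter (82.4 to 65.3 CPM, −0.34). Inside the limit were the largest rise in α-like barcodes, Rab3a (0.21), and the largest falls in β-like (Sytl4, −0.09) and δ-like barcodes (Rab27a, −0.22). The median over the list was 0.08 in α-like, 0.09 in β-like, 0.02 in δ-like and −0.0047 in γ-like barcodes. Of the 6 genes for processing and its partners (Scg5, Pcsk1n, Pcsk1, Pcsk2, Cpe and Pam), all had a mean of at least 50 CPM in β-like barcodes. In each other class 5 did, all but Pcsk1. None of those was past the limit.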

How the data were processed

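Single-cell libraries were made with the 10x Genomics 3′ v3.1 kit. With Cell Ranger 5.0.1, which maps reads by STAR, the authors tallied UMIs of each gene in each barcode against mm10 (build from the submitters' processing notes), with reads down-sampled across samples as needed. The deposited values are these raw counts for barcodes called as cells. The study went on from a copy with ambient RNA removed by CellBender, which was not used here. Each UMI marks the 3′ end of 1 transcript, so gene length was not used. No doublet caller was run, and mixed barcodes were treated by the alternatives below.

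From the counts, classes were set by the leading hormone (at least 10% of UMIs). Nonendocrine names needed 3 detected markers of 1 of 10 lists, of which the list with the highest share of UMIs was used. An acinar name also needed 1% acinar UMIs, and barcodes with at least 1% Pyy or Ghrl were set apart, both chosen after the data were seen. The members and lists were chosen with earlier results of these data known. UMIs were summed per class and library and scaled to CPM. Ratios have exact conditional binomial 95% intervals, levels exact Poisson intervals and shares Clopper-Pearson intervals, and all cover counting error only. A ratio was called past the limit at 1.2-fold among genes with a mean of at least 50 CPM. Thinning drew 5000 UMIs per barcode without replacement and left out 321 WT and 484 GKO nonendocrine and 36 and 29 hormone-led barcodes.

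Named genes were the 6 members, the list gene with the largest rise and the one with the largest fall in each class, and the 3 genes most like each member. Some genes that these rules or the marker lists name are not reported here. Of the marker genes, 3 were not among the features. Promoters came from RefSeq (GRCm38.p6) and gene models from GENCODE vM21. Alternatives changed the total, scaling (TMM from edgeR 4.0.16), filters, classes, barcode weights and limits. The ratio and its interval were tested on Poisson counts simulated from the pooled δ-like profile. Those counts held no spread between barcodes, mice or libraries, so the test bears on counting error only. The scripts ran in Python 3.11.15 (pandas 2.3.3, scipy 1.17.1, numpy 2.4.6, matplotlib 3.10.9) and R 4.3.3.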

Additional observations from a re-analysis of the deposited data

Results flagged for a closer look

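The log2 ratio of GKO to WT had opposite signs in different hormone-led classes for 4 members, with counting intervals clear of 0 under both totals. By the same rule 9.25% of the 1049 genes with at least 50 CPM in each class did so, and 26.6% of the 79 genes at or above the level of the lowest member (522 CPM in its lowest class). With 1 library per genotype the difference between classes was not tested. For Chga it was 0.0657 in α-like, 0.152 in β-like and 0.0541 in δ-like barcodes against −0.0494 in γ-like barcodes. Chgb had 0.0660, 0.189 and 0.0727 in the same 3 classes and −0.0382 in γ-like barcodes. Resp18 had 0.168, 0.184 and 0.281 against −0.0636 in γ-like barcodes. Scg2 had 0.162 in β-like and 0.0967 in γ-like barcodes against −0.110 in α-like and −0.0507 in δ-like barcodes. These signs were the same under all 11 alternatives, apart from Chgb in α-like barcodes (9 of 11), and every ratio but that of Resp18 in δ-like barcodes lay inside 1.2-fold.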

How the results depend on the processing

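No paired analysis was possible because each genotype had 1 library, and for the same reason no replicate could be left out. The count of members at least 1.2-fold higher in GKO moved with the limit itself, to 1 in α-like and 5 in β-like barcodes at 1.1-fold and 0 in δ-like barcodes at 1.5-fold. It was 0 in δ-like barcodes with TMM factors, and 1 (Resp18) in β-like barcodes without those that held 3 nonendocrine markers. The share of all genes past 1.1-fold was not computed. In β-like barcodes 34.9% of all genes had a higher ratio than Chga, the lowest of the 5 members. In α-like barcodes 14.5% of all genes had a higher ratio than Resp18, the 1 member past 1.1-fold there. Of the members above 50 CPM, none was at least 1.2-fold lower in any class under the alternatives tried. Of the other granule genes, the count higher in GKO became 0 in β-like and 0 in γ-like barcodes, both in hormone-free CPM and with TMM factors. In hormone-free CPM 2 were higher and 1 lower in δ-like barcodes, beside 3.31% and 5.65% of all genes. Of 48 gradients of hormone-free CPM along the hormone share, 7 changed sign when barcodes with a second hormone of 5% or more were left out, an alternative chosen after the data were seen. The log2 ratio of the highest to the lowest group became 0.391 in WT and 0.315 in GKO for Scg2 in α-like barcodes (−0.249 and −0.440 with all barcodes), and 0.781 and 1.06 for Vgf in δ-like barcodes (−0.120 and −1.16, on 16 UMIs in each library). The other 3 were Chga in WT β-like (0.0604 to −0.0459), Scg3 in GKO γ-like (−0.0858 to 0.0612) and Chgb in WT γ-like barcodes (−0.0076 to 0.0079). The cause of these changes was not tested. Taking CPM of all UMIs instead also turned gradients, among them those of Scg3 in β-like barcodes, and these are not in that count. Of the 264 log2 ratios of single members under alternatives, 257 kept their sign, and the 7 others were those of Chgb in α-like (2) and Vgf in γ-like barcodes (5). Depth limited Vgf most, and pooled animals leave the spread between mice unknown.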

Other observations

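The sets described here were formed after the data were seen, from few barcodes. In WT, 4 barcodes had at least 1% of their UMIs from Sct, which encodes the gut hormone secretin, and no GKO barcode did. Chgb held 3.77%, 4.88%, 4.24% and 5.80% of their UMIs, with 359, 244, 618 and 440 UMIs. Over the 4 barcodes Chgb was at 45266 CPM (95% interval 43115 to 47497), against 3507 CPM in WT δ-like barcodes, the highest hormone-led class. Scg2, which stood high with Chgb in δ-like barcodes, had 2, 0, 1 and 0 UMIs there. Vgf had 0, 5, 13 and 6 UMIs, or 654 CPM over the 4 barcodes (419 to 973), against 36.1 CPM in WT α-like barcodes. Tph1, the enzyme of serotonin synthesis outside the brain, had 17 to 76 UMIs in each, and the ductal gene Krt19 had 11 to 125.

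Barcodes with no leading hormone, no nonendocrine name and under 1% Pyy and Ghrl were left without a class. Of these, 9 in each library had at least 1% Iapp. Chga was at 27532 CPM in the WT and 21355 CPM in the GKO barcodes, and Chgb at 20190 (19337 to 21070) and 10103 CPM (9508 to 10726). The range over single barcodes was wide, with Chga from 1593 to 46245 CPM in WT and from 3096 to 44536 CPM in GKO.

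Barcodes with at least 1% Pyy but no leading hormone, no nonendocrine name and under 1% Ghrl numbered 127 in WT and 115 in GKO. They held Chga at 8279 and 7023 CPM, Chgb at 2665 and 2919 CPM, Scg2 at 2815 and 2761 CPM, Scg3 at 1004 and 814 CPM, and Resp18 at 4234 and 4317 CPM. Vgf had 19 and 4 UMIs there. The 6 WT barcodes rich in Ghrl had 4917 to 13396 CPM of Chga, the 1 GKO barcode had 17673 CPM, and none of the 7 held a Vgf UMI.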
